A study of Mus musculus with 4 samples.

Results

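Dmd and Il1rapl1, the giant genes of mouse chromosome X, were followed in Hi-C correlation matrices of female tail tip fibroblasts (TTF). Their members were all bins that overlap either gene body in mm10: 17 of the 588 bins with data at 250 kb (10 for Dmd, 7 for Il1rapl1), and 40 of 1461 at 100 kb (25 and 15). None of the bins of either gene lacked data. The region was chosen from these same data, because the difference between genotypes in the split of the mus chromosome at Dxz4 depended most on the block from 80 to 90 Mb, which holds both genes. Values on that split are therefore descriptions and support nothing.

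The study made Hi-C, a proximity ligation assay of nuclear DNA contacts, from 2 Sirt7-/- (KO) and 2 wild-type (WT) samples. All were female TTF from hybrids of mus and cas genomes, with chromatin cut by HindIII. Sirt7 encodes a nuclear NAD-dependent deacylase. Reads were split by allele, and the replicates of a genotype were combined before deposit, so each genotype has 1 matrix per allele and bin size, or 8 in all. No difference between KO and WT has a replicate check, and no p-value or standard error was computed. The labels give neither the age of the animals nor which X was inactive, and Hi-C holds no expression values with which to check the cell type.

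Each value is a correlation coefficient: it says how alike 2 bins are in their contacts, and is no contact count. Read depth is unknown. As stand-ins, the SD of all entries at 250 kb was 0.0597 in KO and 0.0682 in WT on mus, and 0.117 in KO and 0.131 in WT on cas, so the KO matrices were the flatter ones on both alleles. Neighbouring bins share the same libraries and overlapping contacts, and are not replicates of a genotype.

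Dmd encodes dystrophin, which ties the actin cytoskeleton of muscle fibres to the extracellular matrix, and is known for several promoters that give long and short forms. Il1rapl1 encodes a synaptic adhesion protein of the interleukin-1 receptor family that acts in neurons. In female cells 1 X is silenced by Xist RNA, and the silenced copy is known to part at the Dxz4 macrosatellite into a pair of large domains, while the active copy keeps A and B compartments, gene-rich and gene-poor regions that contact their own kind. Very long genes with few neighbours usually lie in B.

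Dmd spans chrX:82814664-85205050 (2.39 Mb) and Il1rapl1 spans chrX:86740937-88115948 (1.38 Mb), the rank 1 and rank 2 lengths among protein-coding genes of chromosome X in the RefSeq annotation of GRCm38.p6, which is the mm10 assembly. Dmd starts 7.07 Mb to the right of Dxz4, placed at the midpoint of its host transcript 4933407K13Rik (chrX:75725458-75764699). The gene bodies are 1.54 Mb apart, and Tab3, Gk and Nr0b1 lie between them. The block has 19 protein-coding genes by midpoint.

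RefSeq lists 2 start sites for Dmd and 1 for Il1rapl1 in the table used here. The 250 bases before each site are shown because they place the start sites within the bins described below, with CG dinucleotides in capitals.
Dmd, first start site, plus strand, chrX:82948620-82948869: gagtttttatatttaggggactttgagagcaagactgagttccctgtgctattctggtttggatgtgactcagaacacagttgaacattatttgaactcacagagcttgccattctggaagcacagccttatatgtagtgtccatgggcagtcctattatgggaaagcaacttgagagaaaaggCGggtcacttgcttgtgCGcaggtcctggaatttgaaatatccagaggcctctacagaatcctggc
Dmd, second start site, plus strand, chrX:85048045-85048294: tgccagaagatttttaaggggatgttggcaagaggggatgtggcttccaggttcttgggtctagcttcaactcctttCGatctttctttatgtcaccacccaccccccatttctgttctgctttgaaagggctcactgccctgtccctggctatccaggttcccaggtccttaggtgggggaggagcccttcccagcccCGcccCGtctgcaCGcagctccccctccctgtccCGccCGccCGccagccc
Il1rapl1, minus strand, chrX:88115949-88116198: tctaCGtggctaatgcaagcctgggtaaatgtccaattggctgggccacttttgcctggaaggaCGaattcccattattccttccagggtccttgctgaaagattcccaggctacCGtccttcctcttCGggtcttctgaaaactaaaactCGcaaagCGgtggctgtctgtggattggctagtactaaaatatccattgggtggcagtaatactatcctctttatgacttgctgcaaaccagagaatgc
These hold 2, 7 and 6 CG dinucleotides, against a median of 5 over 1223 chromosome X promoters of the same length, 89.0% of which hold at least 1. The first Dmd site lies near the left end of the gene, the second near its right end, and the Il1rapl1 site at the right end of that gene, which is read leftwards.

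On the mus chromosome, both genes had positive correlations with all segments from Dxz4 to 120 Mb in both genotypes, and values nearer 0 or of either sign farther right. Across Dxz4 at 250 kb, 7 of 8 segments were below 0 for Dmd in KO and 7 of 8 in WT. For Il1rapl1 they were 4 of 8 in KO and 7 of 8 in WT. Dmd had a mean correlation with 10 Mb segments to the right of 0.132 in KO and 0.140 in WT from Dxz4 to 80 Mb, and of 0.0910 in KO and 0.0969 in WT from 90 to 100 Mb. Between Dxz4 and 70 Mb, just across the split, it had 0.0228 in KO and -0.0377 in WT. At 250 kb the sign thus changed at Dxz4 in WT, whereas in KO it changed 1 segment further left. This shift did not hold at 100 kb, where Dmd had -0.00249 in KO and -0.0132 in WT with that segment. There 8 of 8 left segments were below 0 for each gene in both genotypes.

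Further left the KO values of Dmd at 250 kb were also nearer 0. From 60 to 70 Mb they were -0.0229 in KO and -0.0553 in WT, from 50 to 60 Mb -0.00890 in KO and -0.0601 in WT, and from 40 to 50 Mb -0.0325 in KO and -0.0686 in WT. Il1rapl1 had 0.00948 in KO and -0.0235 in WT between 70 Mb and Dxz4, and -0.0112 in KO and -0.0532 in WT from 50 to 60 Mb. For each gene 7 of 8 left segments were higher in KO, and the exception was the segment from 0 to 10 Mb, the farthest, where Dmd had -0.00427 in KO and 0.00858 in WT and Il1rapl1 had 0.00442 in KO and 0.00882 in WT. The same count, 7 of 8 for each gene, was found at 100 kb. Segments were not counted for other bins, but 59.2% of all mus pairs across Dxz4 at 250 kb were higher in KO.

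On the right, values differed less evenly. Il1rapl1 had 0.0704 in KO and 0.103 in WT from 90 to 100 Mb, where Dmd differed by -0.00592. From 110 to 120 Mb Dmd had 0.00537 in KO and 0.0263 in WT. In all, 6 of 10 right segments were lower in KO for Dmd and 7 of 10 for Il1rapl1. Of all mus same-side pairs at 250 kb, 49.8% were lower in KO.

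**Figure D1:**
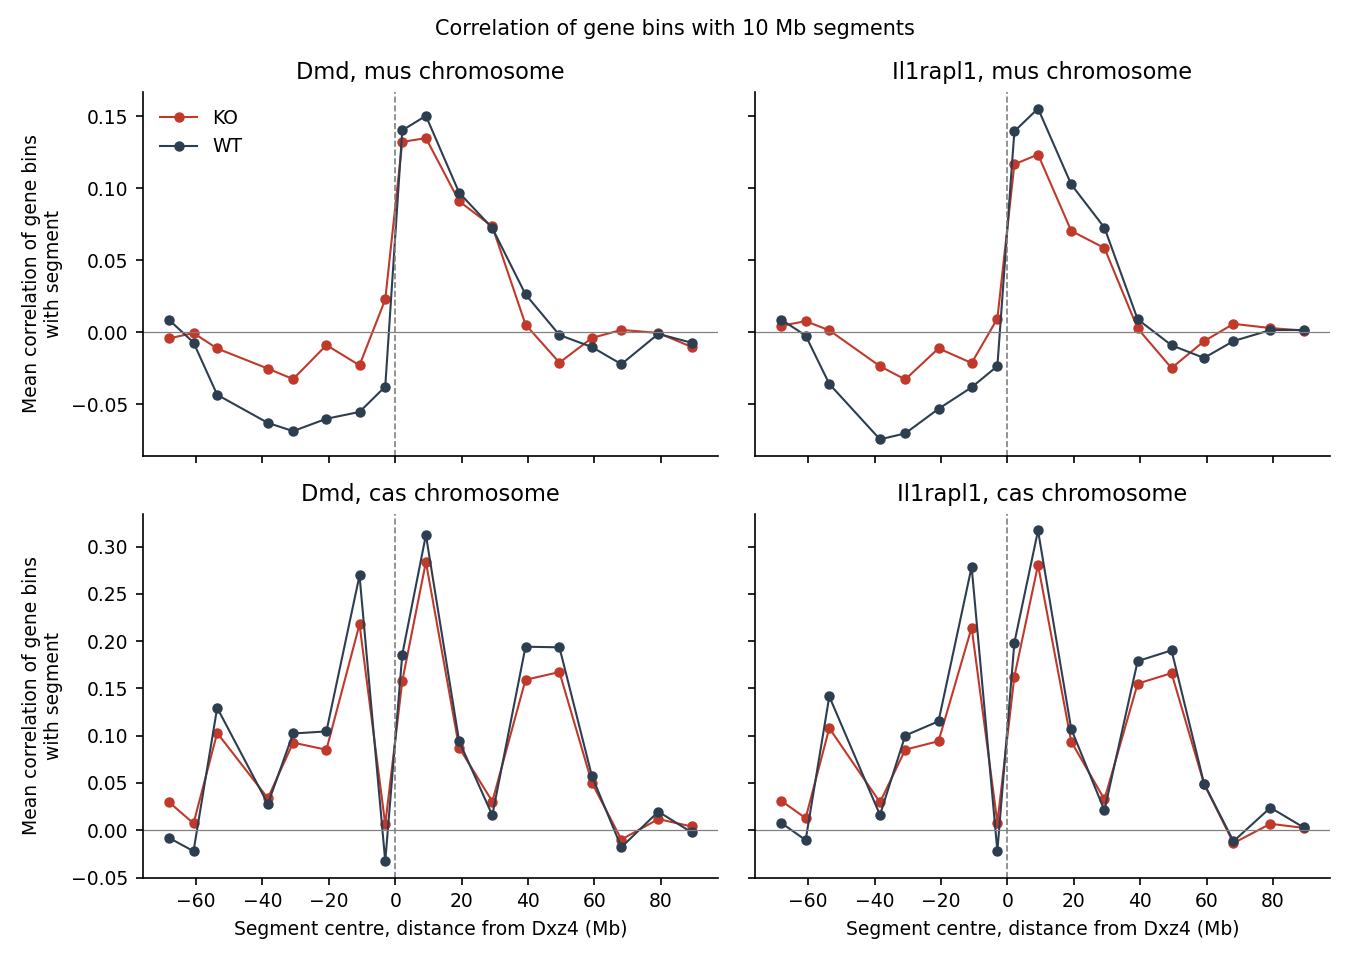
Mean correlation of the bins of Dmd (left) and Il1rapl1 (right) with 10 Mb segments of the mus (top) and cas (bottom) chromosome at 250 kb, against the distance of the segment's centre from Dxz4 in Mb (dashed line), for KO (red) and WT (dark). On mus the WT line drops below 0 at Dxz4 and the KO line stays nearer 0 on the left, while on cas both lines go up and down by segment on both sides of Dxz4.

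On cas the genes were alike to segments on both sides of Dxz4. Dmd correlated with the segment from 60 to 70 Mb, across Dxz4, at 0.218 in KO and 0.269 in WT, above its level with 110 to 120 Mb on its own side, 0.159 in KO and 0.194 in WT. With the segment between 70 Mb and Dxz4 it had 0.00607 in KO and -0.0328 in WT. Il1rapl1 had 0.214 in KO and 0.279 in WT with 60 to 70 Mb, and 0.00813 in KO and -0.0219 in WT with 70 Mb to Dxz4. The cas profiles of both genes were flatter in KO here, with high segments lower and this low one higher. On the left of Dxz4, 4 of 8 segments were higher in KO for each gene, where 46.9% of all cas pairs across Dxz4 were.

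For a contrast at equal distance, each bin of a gene was paired with the bin at the same distance on its right, on the same side of Dxz4, and on its left, across Dxz4. On mus the Dmd contrast, same side minus across, was 0.0345 in KO and 0.0705 in WT over 2100 such pairs, a KO to WT ratio of 0.489. Il1rapl1 had 0.0176 in KO and 0.0494 in WT over 1521 pairs, a ratio of 0.356. The pairs across Dxz4 differed most: Dmd had -0.0109 in KO and -0.0417 in WT across, against 0.0236 in KO and 0.0288 in WT on the same side.

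Il1rapl1 had -0.00934 in KO and -0.0365 in WT across Dxz4, and 0.00828 in KO and 0.0129 in WT on the same side. Of the mus pairs across, 69.0% were higher in KO for Dmd and 66.5% for Il1rapl1, where all pairs across Dxz4 at these distances had 59.2% (pairs share bins). On the same side, 54.2% of Dmd pairs and 52.3% of Il1rapl1 pairs were lower in KO, where all same-side pairs had 49.8%. Over the whole mus chromosome, pairs across had a mean of 0.00522 in KO and -0.0128 in WT.

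Smaller bins gave smaller differences. At 100 kb the mus contrast of Dmd was 0.0202 in KO and 0.0250 in WT, a ratio of 0.808, and that of Il1rapl1 was 0.0129 in KO and 0.0175 in WT, a ratio of 0.735. At this bin size the contrast was lower in KO in 20 of 25 Dmd bins and 12 of 15 Il1rapl1 bins on mus, where 63.1% of all 807 bins were lower in KO. The SDs of the matrices were smaller too, 0.0291 in KO and 0.0306 in WT on mus.

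By distance, Dmd pairs up to 10 Mb apart had a mus contrast of 0.0375 in KO and 0.119 in WT, from only 65 pairs. Here the pairs across differed in sign, at 0.0539 in KO and -0.0134 in WT. At 10 to 20 Mb the contrast was highest in both genotypes, 0.0980 in KO and 0.136 in WT, and at 20 to 50 Mb it was 0.0308 in KO and 0.0893 in WT. Beyond 50 Mb it was near 0, 0.00196 in KO and 0.00100 in WT. Il1rapl1 followed the same order, with 0.0646 in KO and 0.108 in WT at 10 to 20 Mb, then 0.0179 in KO and 0.0603 in WT at 20 to 50 Mb, and -0.00167 in KO and 0.0121 in WT beyond. At 100 kb the KO to WT ratio of Dmd was 0.451 for the pairs up to 10 Mb apart, then 0.856 for those up to 20 Mb and 0.625 for those up to 50 Mb, and beyond 50 Mb the contrast was higher in KO, 0.00990, than in WT, 0.00293.

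All 10 Dmd bins and all 7 Il1rapl1 bins had a lower mus contrast in KO, and 69.1% of all 324 bins that have such pairs did so. Over the Dmd bins the contrast ran between 0.0157 and 0.0593 in KO and between 0.0502 and 0.0851 in WT. The genotypes' ranges overlapped, and the lowest WT bin was the second from the left, chrX:83000001-83250000. Il1rapl1 bins ran between -0.000541 and 0.0401 in KO and between 0.0377 and 0.0719 in WT.

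The genes were not set apart within their block. The 11 bins from 80 Mb to Dmd had 0.0296 in KO and 0.0717 in WT, and the 7 bins from Il1rapl1 to 90 Mb had 0.00981 in KO and 0.0508 in WT, differences of -0.0420 and -0.0410, against -0.0360 for Dmd and -0.0317 for Il1rapl1. The 5 bins between the genes differed less, with 0.0364 in KO and 0.0539 in WT, and 4 of 5 were lower in KO. At 100 kb the direction between the genes turned, with 0.0206 in KO and 0.0199 in WT, and 5 of 14 bins were lower in KO. The median difference of all 324 bins was -0.0154. At 100 kb the mean differences were -0.00480 for Dmd and -0.00463 for Il1rapl1, beside a median of -0.00334 over all bins.

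**Figure D2:**
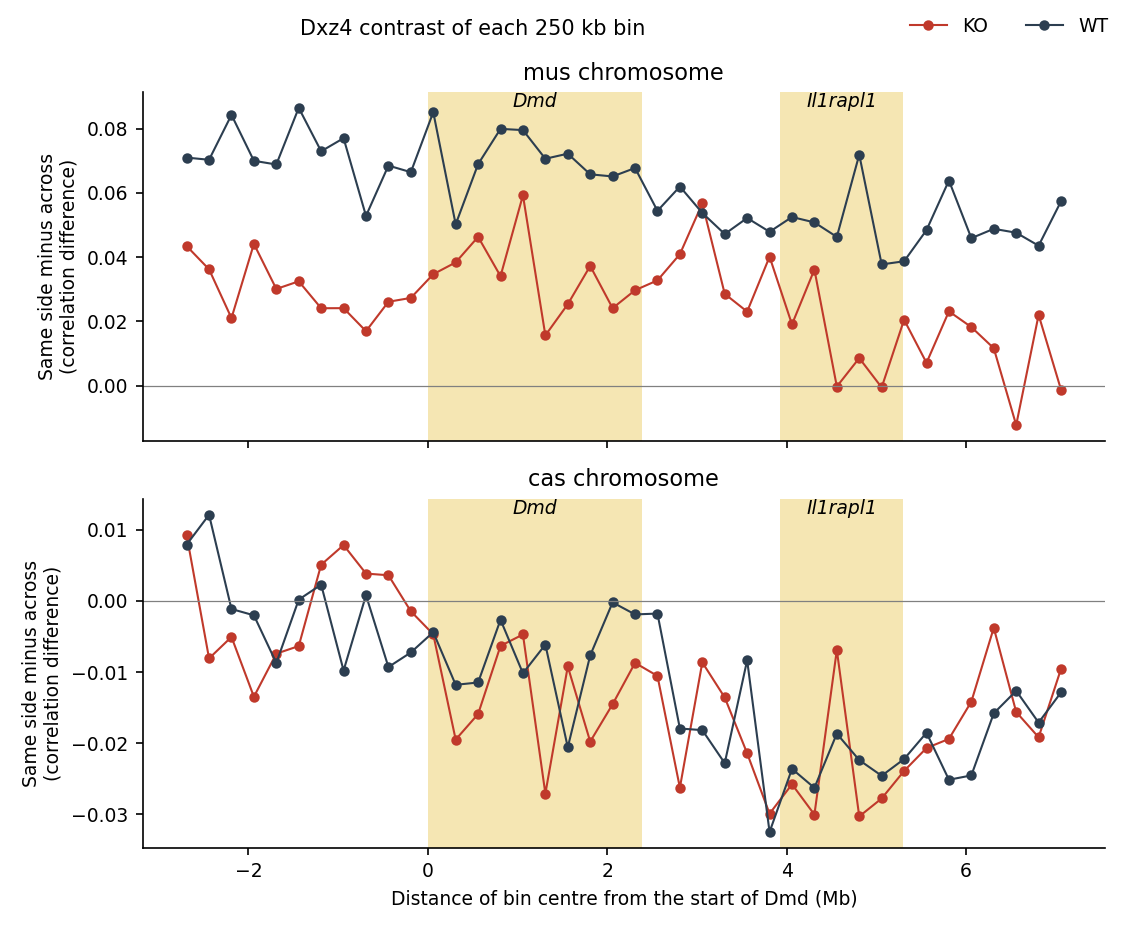
Dxz4 contrast (same side minus across at equal distance, a difference of correlations) of each 250 kb bin from 80 to 90 Mb on mus (top) and cas (bottom), against the distance of the bin's centre from the start of Dmd in Mb, for KO (red) and WT (dark), with the gene bodies shaded. On mus nearly all KO points lie below the WT points, inside the genes and beside them, whereas on cas the lines cross.

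Over all distances the cas contrast was near 0 and negative, -0.0130 in KO and -0.00769 in WT for Dmd. Il1rapl1 had -0.0249 in KO and -0.0243 in WT. The Dmd mean joined large values of either sign. Pairs up to 10 Mb apart had 0.181 in KO and 0.189 in WT. At 10 to 20 Mb Dmd had -0.148 in KO and -0.183 in WT. At 20 to 50 Mb it had 0.0392 in KO and 0.0496 in WT, and beyond -0.0252 in KO and -0.00360 in WT. Il1rapl1 had -0.0477 in KO and -0.0794 in WT at 10 to 20 Mb. Over all distances the contrast was lower in KO in 8 of 10 Dmd bins and 5 of 7 Il1rapl1 bins, where 37.0% of all bins were. The direction of these differences turned at 100 kb, with -0.000630 in KO and -0.00121 in WT for Dmd. Pairs across Dxz4 on cas were positive, 0.0808 in KO and 0.0846 in WT for Dmd and 0.0876 in KO and 0.0946 in WT for Il1rapl1. Of them 49.8% were higher in KO for Dmd and 46.1% for Il1rapl1, close to the 46.9% of all pairs across. On the same side, 56.7% of Dmd pairs and 56.2% of Il1rapl1 pairs on cas were lower in KO, where all same-side pairs had 49.8%.

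The whole-chromosome contrast on mus was 0.0165 in KO and 0.0284 in WT, a difference of -0.0119, and leaving out the 17 bins of both genes gave 0.0161 in KO and 0.0257 in WT, a difference of -0.00966. The other 23 bins of the block moved it further, to -0.00852, and leaving out all 40 gave -0.00528. Per bin left out, the shift was 0.000132 for the genes and 0.000147 for the rest of the block. At 100 kb this order turned, with 8.00e-06 for the genes and 6.03e-06 for the rest. At 250 kb most of the shift lay in the WT value, which was 0.0212 without the block, while KO was 0.0159. Dmd alone moved the difference by 0.00142 and Il1rapl1 alone by 0.000712. The block was chosen for this dependence, so these shifts are descriptions.

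**Figure D3:**
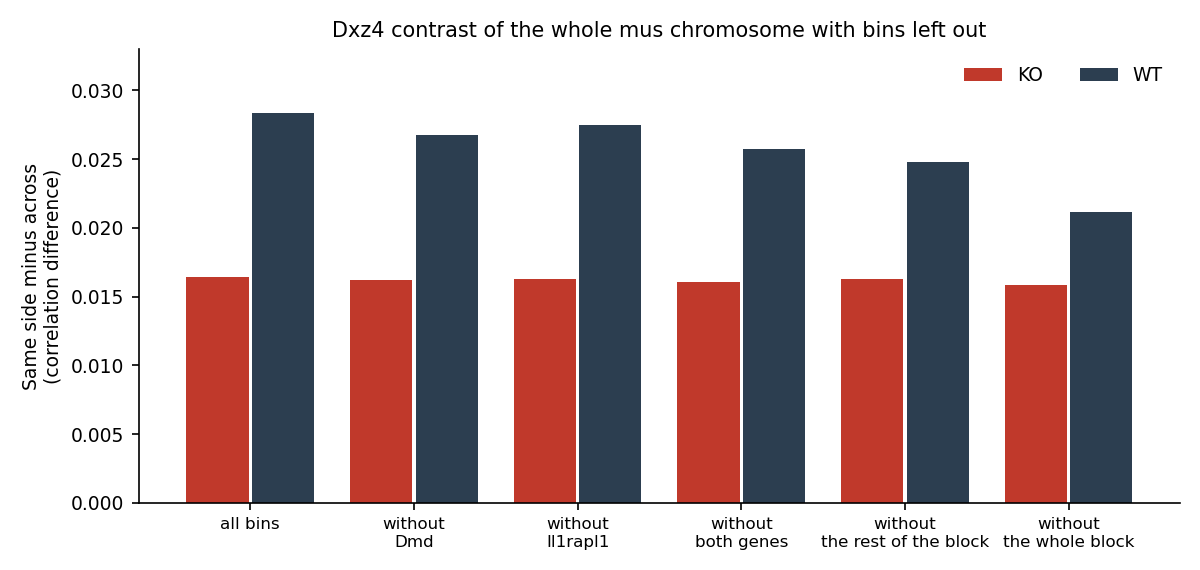
Dxz4 contrast of the whole mus chromosome at 250 kb, for KO (red) and WT (dark), with all bins and with the bins of Dmd, Il1rapl1, both genes, the rest of the 80 to 90 Mb block or the whole block left out. The KO bars stay between 0.0159 and 0.0165, while the WT bars differ more, 0.0284 with all bins and 0.0212 without the block.

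On mus, pairs that did not cross Dxz4 did not have a positive contrast. For bins 2 Mb or more apart with both partners right of Dxz4, Dmd on mus correlated with the right partner at 0.114 in KO and 0.133 in WT, and with the left one, nearer Dxz4, at 0.138 in KO and 0.145 in WT, a contrast of -0.0236 in KO and -0.0122 in WT over 255 pairs. Il1rapl1 had -0.0485 in KO and -0.0388 in WT over 273 pairs. On mus neither gene had a positive value here. Yet KO minus WT was below 0 here too, at -0.0114 for Dmd and -0.00966 for Il1rapl1 on mus. On cas this contrast was 0.0868 in KO and 0.0779 in WT for Dmd and -0.110 in KO and -0.125 in WT for Il1rapl1. These pairs are no farther apart than a gene bin and Dxz4, while only 65 of the 2100 Dmd pairs across were up to 10 Mb apart. The sets thus differ in distance, and whether the KO difference depends on crossing Dxz4 was not tested.

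Within the gene bodies, bins were more alike than other bins at the same distance, most clearly on cas. The 45 pairs of Dmd bins had a mean of 0.322 in KO and 0.329 in WT on cas, where all chromosome pairs at those distances had 0.140 in KO and 0.151 in WT. The 21 pairs of Il1rapl1 bins had 0.312 in KO and 0.358 in WT on cas, against 0.152 in KO and 0.163 in WT at like distance. Among all windows of as many adjacent bins, Dmd on cas lay at the 95.4 percentile in KO and 90.4 in WT, and Il1rapl1 at 93.4 in KO and 93.9 in WT. At 100 kb these percentiles were 88.0 in KO and 88.4 in WT for Dmd. Those of Il1rapl1 were 79.9 in KO and 92.2 in WT.

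On mus the 2 genes stood differently. Dmd had 0.179 in KO and 0.191 in WT, against 0.121 in KO and 0.140 in WT at like distance, and lay at the 90.9 percentile of windows in KO and 92.2 in WT. Il1rapl1 had 0.135 in KO and 0.169 in WT, against 0.124 in KO and 0.143 in WT at like distance, at the 64.5 percentile in KO and 73.4 in WT. Within Il1rapl1 on mus, bins were thus little more alike in KO than any other neighbours. At 100 kb they had 0.0377 in KO and 0.0536 in WT, where like pairs had 0.0377 in KO and 0.0435 in WT.

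Within Dmd, 27 of 45 pairs on mus (60.0%) and 26 on cas (57.8%) were lower in KO, near the shares over all 5059 chromosome pairs no farther apart than Dmd bins can be, which were 61.6% on mus and 55.4% on cas. The mean differences, -0.0120 on mus and -0.00737 on cas, turned to 0.0126 and 0.0299 when the matrices were brought to equal SD, and to 0.00683 and 0.00361 when the mean of each distance was subtracted, so no direction is given for Dmd. Within Il1rapl1, 14 of 21 pairs on mus (66.7%) and 19 on cas (90.5%) were lower in KO. At 100 kb 68 of 105 pairs on mus (64.8%) and 70 on cas (66.7%) were. No share over all pairs was computed for the shorter range of Il1rapl1. Its differences at 250 kb, -0.0343 on mus and -0.0462 on cas, lay at the 22.4 and 12.6 percentiles of windows. They kept their sign in the settings named for Dmd. They were -0.0142 and -0.00799 with equal SD and -0.0153 and -0.0345 with distance means subtracted.

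Il1rapl1 values were lower in KO at each distance on both alleles, and so were the means of all chromosome pairs. Adjacent Il1rapl1 bins on mus had 0.148 in KO and 0.165 in WT. All adjacent mus pairs had 0.131 in KO and 0.149 in WT. At 0.5 to 1 Mb on mus, Il1rapl1 had 0.133 in KO and 0.1745 in WT, and all such pairs 0.123 and 0.143. On cas adjacent bins of Il1rapl1 had 0.316 in KO and 0.360 in WT, and bins 1.25 to 1.5 Mb apart had 0.317 in KO and 0.356 in WT. All adjacent cas pairs had 0.184 in KO and 0.196 in WT. Correlations within the genes hardly declined with distance on cas: Dmd bins over 1.5 Mb apart had 0.284 in KO and 0.310 in WT, and adjacent ones 0.332 in KO and 0.333 in WT, while pairs of the whole chromosome had only 0.103 in KO and 0.111 in WT at the longest of these distances.

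**Figure D4:**
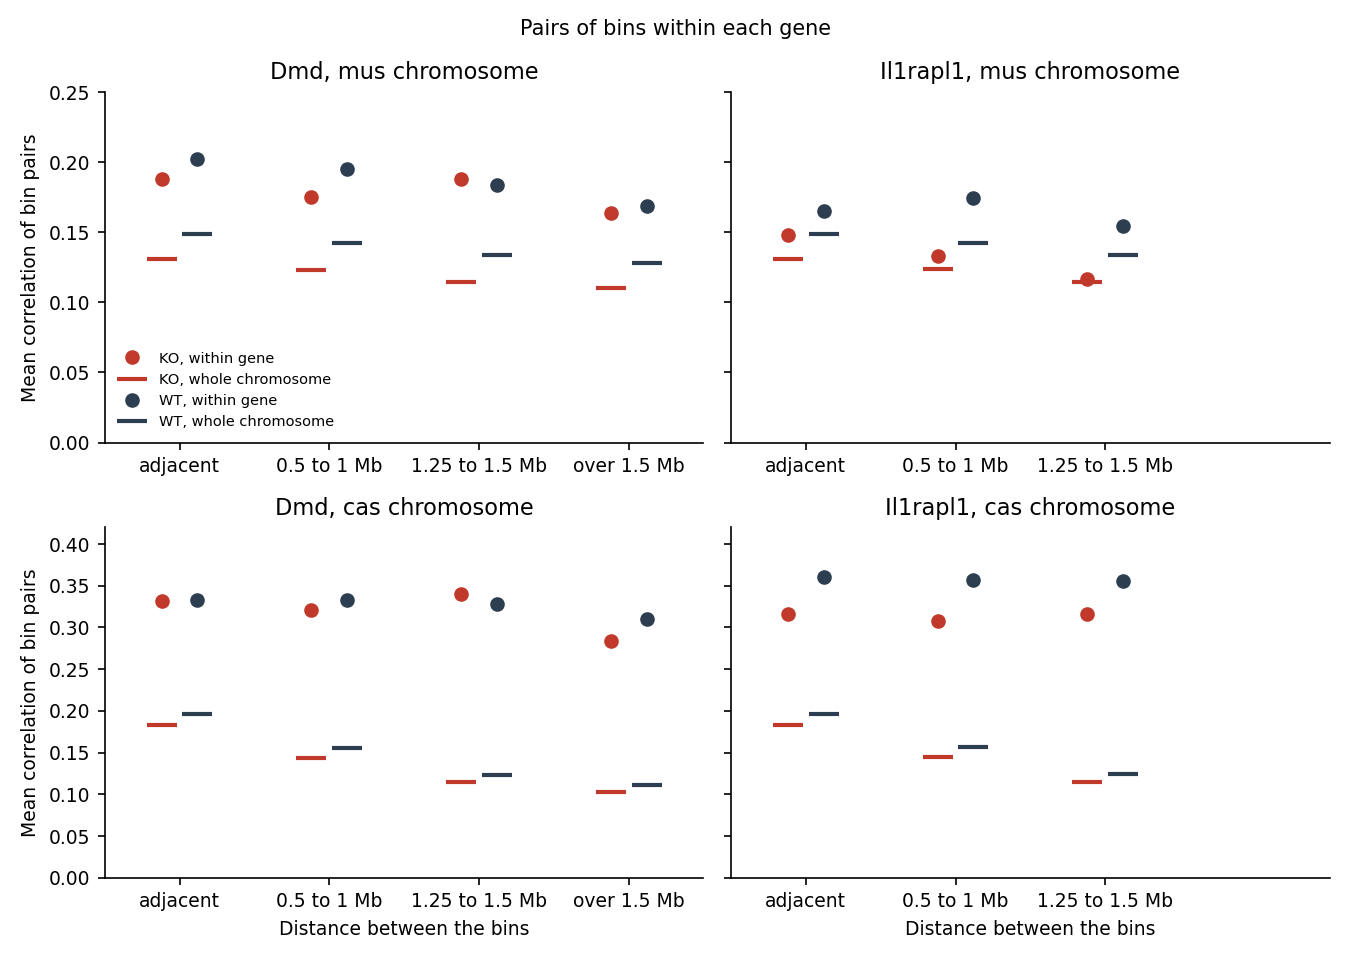
Mean correlation of pairs of 250 kb bins within Dmd (left) and Il1rapl1 (right) on mus (top) and cas (bottom) by distance between the bins, for KO (red) and WT (dark); dots are pairs within the gene and dashes all chromosome pairs at the same distances. On cas all dots lie well above the dashes, and on mus the KO dots of Il1rapl1 lie close to them.

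The genes also resembled each other across the interval between them. The 70 pairs of 1 Dmd and 1 Il1rapl1 bin had 0.307 in KO and 0.330 in WT on cas, 1.5 to 5.25 Mb apart, which is about the level within each gene. Dmd and the bins between the genes, though closer, had 0.259 in KO and 0.259 in WT on cas. On mus this order was the other way: Dmd with Il1rapl1 had 0.139 in KO and 0.168 in WT, and Dmd with the bins between had 0.172 in KO and 0.187 in WT.

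Of the 70 pairs between the genes, 48 on mus and 49 on cas were lower in KO, where 61.5% and 54.5% of all pairs at these distances were. The mean difference was -0.0289 on mus and -0.0232 on cas, but the cas value was 0.0132 when the matrices were brought to equal SD. The mean matrix row of each gene, a profile of correlation coefficients, was taken over 552 bins at least 2 Mb from either gene. Between the genes these profiles correlated at 0.878 in KO and 0.932 in WT on mus. On cas they correlated at 0.992 in KO and 0.992 in WT. The bins share the same matrix and neighbours, so the coefficients only describe it.

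The compartment score of a bin is its mean correlation with the A class less its mean correlation with the B class, and by it both genes lay in B on cas. Of their bins, 9 of 10 for Dmd and 7 of 7 for Il1rapl1 were in the B class, the 20% of bins at the gene-poor end of the first principal component of cas. The classes were made from the cas matrices of both genotypes, so membership on cas is a description. The mean score on cas was -0.392 in KO and -0.443 in WT for Dmd, and -0.390 in KO and -0.442 in WT for Il1rapl1. Dmd bins ran between -0.449 and -0.349 in KO and between -0.490 and -0.366 in WT.

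The score was nearer 0 in KO in 10 of 10 Dmd bins and 6 of 7 Il1rapl1 bins on cas, where 60.9% of all 588 bins were higher in KO. The differences of 0.0506 and 0.0522 were 0.00294 and 0.00468 with matrices brought to equal SD. The SD of the cas matrix was lower in KO, and whether it bears on this result was not tested. Between the genes, the bin of Tab3, a signalling adaptor gene, and Gk, the gene of glycerol kinase, interrupted B, with a cas score of -0.0650 in KO and -0.0784 in WT. The bin of Nr0b1, a nuclear receptor gene, and Samt3 was at -0.419 in KO and -0.451 in WT.

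On mus all scores were small. Dmd had -0.00569 in KO and -0.0227 in WT, and Il1rapl1 -0.0121 in KO and -0.0255 in WT. They were higher in KO in 8 of 10 and 6 of 7 bins, where 52.7% of all bins were, and the differences, 0.0170 and 0.0134, kept their sign with equal SD, at 0.0152 and 0.0110. All bins right of Dxz4 had a median difference of 0.0113. At 100 kb that median was 0.00228, beside 0.00800 for Dmd and 0.00675 for Il1rapl1.

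**Figure D5:**
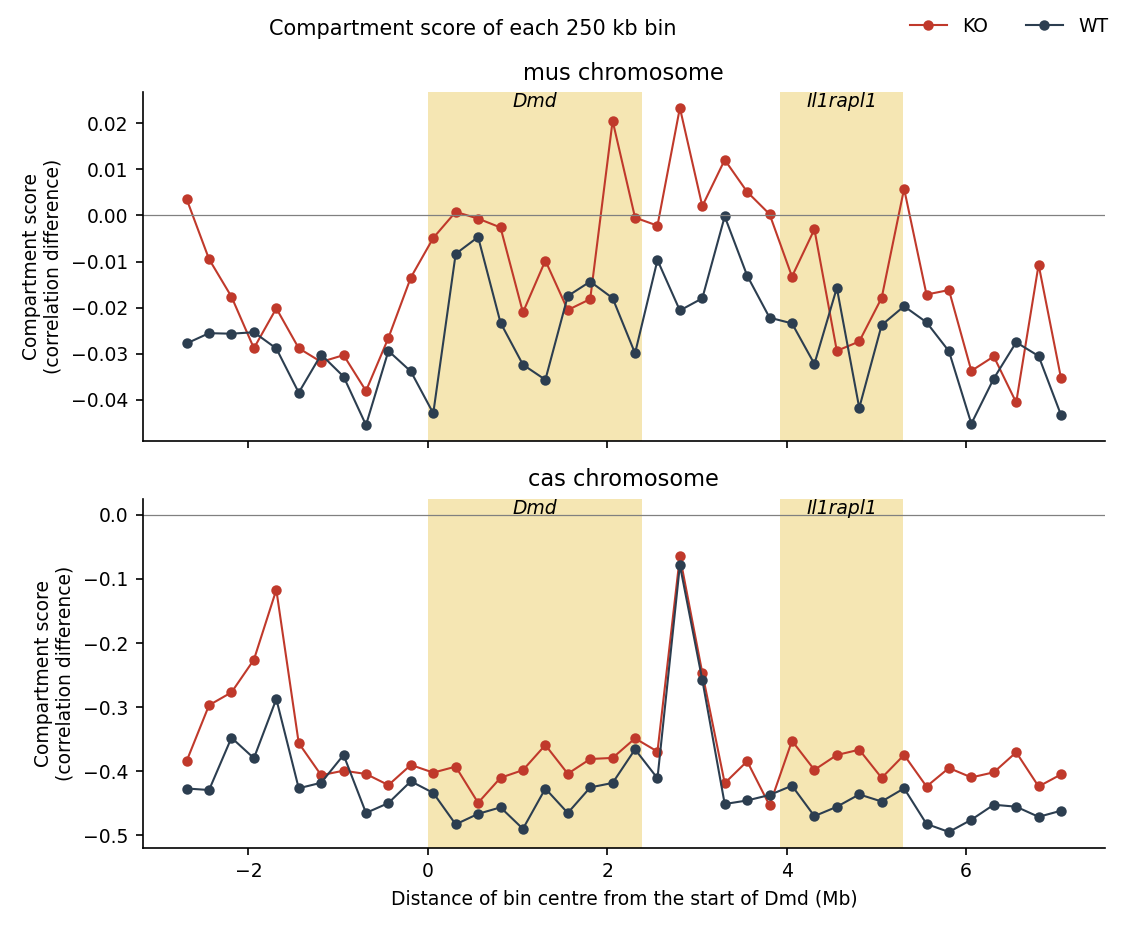
Compartment score (a difference of mean correlations, A class less B class) of each 250 kb bin from 80 to 90 Mb on mus (top) and cas (bottom), against the distance of the bin's centre from the start of Dmd in Mb, for KO (red) and WT (dark), with the gene bodies shaded. On cas both genes lie between -0.349 and -0.490, and the sharp peak between them is the bin of Tab3 and Gk.

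At 100 kb the bins of the printed start sites differed in how like the rest of their genes they were. On mus the bin of the first Dmd start site correlated with the other Dmd bins at 0.0637 in KO and 0.0718 in WT, that of the second at 0.0417 in KO and 0.0655 in WT, and that of the Il1rapl1 start site with its gene at 0.0161 in KO and 0.0550 in WT. Their mus Dxz4 contrasts were 0.0213 in KO and 0.0342 in WT, 0.0135 in KO and 0.0190 in WT, and 0.0123 in KO and 0.0196 in WT. All of these were lower in KO, with a single bin behind each value. So were the mus contrasts of 20 of 25 Dmd bins, 12 of 15 Il1rapl1 bins and 63.1% of all 807 bins. Of the mus pairs within the genes, 56.3% for Dmd and 64.8% for Il1rapl1 were lower in KO. No share over all chromosome pairs was computed at 100 kb, so whether these shares exceed the chromosome level was not tested. The means of all mus pairs at like distance were also lower in KO. They were 0.0356 in KO and 0.0416 in WT for Dmd distances, and 0.0377 in KO and 0.0435 in WT for Il1rapl1 distances. On mus the KO value at the Il1rapl1 start site was below the mean of its gene, 0.0377 in KO and 0.0536 in WT. That bin is the last of its gene, and no like-distance level was computed for single bins. The bin chrX:87900001-88000000, which holds no printed start site, was also low, at 0.0206 in KO and 0.0560 in WT. The leftmost bin of the gene, chrX:86700001-86800000, had 0.0341 in KO and 0.0683 in WT. On cas the start-site bin of Il1rapl1 had 0.0935 in KO and 0.102 in WT, above its gene's 0.0759 in KO and 0.0944 in WT. The cas compartment scores of the start-site bins, in the same order, were all negative. They were -0.0882 in KO and -0.111 in WT, -0.0689 in KO and -0.0985 in WT, and -0.0986 in KO and -0.121 in WT.

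Other long genes varied. Of the 11 protein-coding genes of chromosome X at least 500 kb long, Dmd and Il1rapl1 had the highest excess within the gene on cas over pairs at like distance in both genotypes, 0.181 in KO and 0.178 in WT for Dmd and 0.160 in KO and 0.195 in WT for Il1rapl1. Il1rapl2, the paralog of Il1rapl1, had 0.101 in KO and 0.108 in WT, and a compartment score on cas of -0.323 in KO and -0.381 in WT. Diaph2, an actin-regulating formin gene, had a negative excess on cas, -0.0664 in KO and -0.0475 in WT, and a positive score, 0.170 in KO and 0.173 in WT. The genes differ in the number of bins, and those of 3 bins rest on 3 pairs.

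Outside the block and at 2 Mb or more, the protein-coding genes whose bins were most like Dmd, by the mean over the 4 matrices at 250 kb among 832 genes, were Gm44 at 0.225, 4930480E11Rik at 0.220 and, in a shared bin at 0.217, Fam47c, Gm52446 and Prrg1. For Il1rapl1 they were 4930480E11Rik at 0.237 and the same shared bin at 0.232. The order turned on mus, where Dmd had 0.0852 in KO and 0.117 in WT with Gm44, against 0.135 in KO and 0.135 in WT with the bin of Fam47c. These bins lie on the same side of Dxz4, 4.08 to 8.37 Mb from the gene they are named for. In the bin of 4930480E11Rik, Il1rapl1 had 0.121 in KO and 0.150 in WT on mus and 0.306 in KO and 0.371 in WT on cas.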

How the data were processed

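Hi-C was made from 2 KO and 2 WT samples. The deposited values are scores, correlation coefficients between the contact profiles of bin pairs on chromosome X, in matrices that combine the replicates of a genotype and are split by allele, per the file headers (HOMER format). Juicer, HOMER, Bowtie2, cutadapt and mm10 are named in the submitters' processing notes. Versions, contact normalization and read numbers were not given in the sources used here. Xist binding is the assay in the series' design text, but the labels and headers describe Hi-C.

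Bins without data in any matrix of a bin size were left out. Contrasts, classes and scores were computed with Python 3.11.15 and numpy 2.4.6; the whole-chromosome contrast weights each distance by its smaller number of pairs, at 2 Mb or more. Percentiles describe positions on this chromosome. The functions were tested on simulated matrices with planted differences. Alternatives were 100 kb bins, equal SD, subtraction of distance means, bins wholly inside the genes, omission of the weakest 10% of bins per matrix, and limits on distance and classes. The members, lists and rules were chosen with earlier results of these data known. Genes named were the members, genes of the 80 to 90 Mb block, genes of at least 500 kb, and the 3 genes most like each member, with ties, ranked over protein-coding genes.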

Additional observations from a re-analysis of the deposited data

Results flagged for a closer look

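Of 12 KO minus WT differences at 250 kb that were set side by side on mus and cas, 3 had opposite signs. With 1 combined matrix per genotype and allele, the difference between the alleles was not tested. Pairs across Dxz4 were higher in KO on mus and lower on cas, with 0.0308 and -0.00386 for Dmd and 0.0272 and -0.00704 for Il1rapl1. The whole-chromosome Dxz4 contrast without both genes differed by -0.00966 on mus and 0.00853 on cas. The contrast itself lay nearer 0 in KO on both alleles, at 0.0161 in KO and 0.0257 in WT on mus and -0.0267 in KO and -0.0352 in WT on cas. Groups of samples could not be screened for outlying values, since the replicates were combined.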

How the results depend on the processing

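All values here are KO minus WT differences. Of 87 recomputed values, 77 kept their sign, but only 49 stayed within a factor of 1.5 of the main value. A further 28 moved beyond it and 10 reversed. With 100 kb bins 1 of 15 stayed within that factor. Leaving out the weakest bins removed no bin of either gene, so the values within and between the genes could not change there. The mus Dxz4 contrasts of both genes were negative in every setting run. With 100 kb bins the mus values were -0.00425 within Dmd, -0.0159 within Il1rapl1, -0.00887 between the genes, -0.00480 and -0.00464 for the Dxz4 contrasts of Dmd and Il1rapl1, and -0.00108 for the chromosome contrast without the genes. On cas they were -0.0185 within Il1rapl1 and -0.0129 between the genes, and the cas contrasts turned to 0.000580 for Dmd and 0.000930 for Il1rapl1. With equal SD the values within Dmd turned to 0.0126 on mus and 0.0299 on cas and that between the genes on cas to 0.0132; within Il1rapl1 they were -0.0142 on mus and -0.00799 on cas, and between the genes on mus -0.00848. With distance means subtracted the values within Dmd turned to 0.00683 on mus and 0.00361 on cas, and others were -0.0153 within Il1rapl1 on mus and, between the genes, -0.0100 on mus and -0.0148 on cas. With bins wholly inside the genes the cas values were -0.0143 within Dmd and -0.0373 between the genes. Without the weakest bins, which left 422, the chromosome contrast without the genes was -0.0178 and the cas contrast of Dmd turned to 0.00504. With pairs up to 50 Mb the cas contrasts turned to 0.00245 for Dmd and 0.0126 for Il1rapl1. The cause was not tested. No paired analysis was possible because the replicates were combined before deposit, and for the same reason no replicate could be left out. Depth is unknown, so differences of the size of noise cannot be told from others.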
